A study of Caenorhabditis elegans with 54 samples.

Results

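Nuclear RNAi and histone H3 lysine 9 (H3K9) methylation were followed through 7 genes of the nematode Caenorhabditis elegans: nrde-1 (C14B1.6), nrde-2 (T01E8.5), nrde-4 (F45E4.10), set-25 (Y43F4B.3), set-32 (C41G7.4), met-2 (R05D3.11) and hpl-2 (K01G5.2). They were chosen by name for their known roles, with earlier results of these data known. They are 7 of 46003 gene names in the files of set 2 and of 45904 in those of set 1. In nuclear RNAi, an Argonaute protein carries a small RNA into the nucleus and, with the NRDE proteins, slows transcription of the matching gene and brings methylation of H3K9 to its chromatin. In the worm germline this can be inherited over generations. Many of the small RNAs involved are 22G-RNAs, which RNA-dependent RNA polymerases make on the target's own mRNA, so small RNA counts on a gene tell in part how far that gene is itself a template. MET-2 adds the lower methyl marks to H3K9 and SET-25 the trimethyl mark, SET-32 acts in small RNA-directed H3K9 methylation in the germline, and HPL-2 is a heterochromatin protein 1 homologue that reads methylated H3K9.

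The study, whose title names a small RNA feedback loop acting on 22G-RNA levels, sequenced small RNA (30 libraries) and mRNA (24 libraries) from whole day 1 adults, with 3 libraries per strain and assay and 8000 animals per sample. Set 1 holds small RNA of the strains prg-1(n4357) and, separately, ergo-1(tm1860), with growth conditions given as 20 °C (68 h) and as 25 °C (48 h) but not assigned to libraries. Set 2 holds small RNA and mRNA of 8 strains grown at 20 °C for about 64 h. No strain of either set analysed here was wild type, so all levels are levels in mutants. The set 2 strains carry the deletion eri-6[e-f](cmp261), the deletion sosi-1(cmp262), or the deletion of both (sosi-1 eri-6[e-f], cmp263; below, the double deletion), each without and with mut-16(pk710), and the remaining strains are prg-1(n4357); hrde-1(tm1200) and prg-1(n4357); ergo-1(tm1860). MUT-16 is the scaffold protein of mutator foci, sites of 22G-RNA amplification, eri-6 encodes part of a helicase of the ERGO-1 26G-RNA pathway, PRG-1 is the Argonaute of piRNAs, ERGO-1 an Argonaute of 26G-RNAs and HRDE-1 the germline nuclear Argonaute. A role for sosi-1 is not stated in the labels. Each of the 6 deletion strains with and without mut-16 is given as 1 strain, so each genotype rests on 1 line.

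Levels are given as CPM (counts per 1000000 counts of the library), scaled by the trimmed mean of M values (TMM), and they are compared between strains for 1 gene at a time. A ratio between genes of 1 library is used once, for nrde-1 in small RNA. A gene passed the test in a comparison when its adjusted p (Benjamini-Hochberg, edgeR quasi-likelihood test on all features) was below 0.05 and it changed at least 2-fold, that is, 1 on the log2 scale. All 7 genes passed the filter on low counts in every assay, with 56 to 10221 reads per library in mRNA, 623 to 59808 in set 2 small RNA and 967 to 17328 in set 1. In units of 1000000 counts, library totals ran from 13.22 to 93.98 in mRNA, from 8.0 to 42.01 in set 2 small RNA and from 10.94 to 14.73 in set 1. As a check of the labels, sosi-1 mRNA had 0 counts in the 4 strains with its deletion, and ergo-1 mRNA was 3.45 ± 0.672 CPM (SD, n = 3) in prg-1; ergo-1, where every other library had at least 32.8. The sosi-1 mRNA was also low without the deletion, with means of 0.124 CPM in eri-6[e-f] and 0.239 in prg-1; ergo-1. Small RNA counts on sosi-1 separated the strains of set 2. They were at most 1.34 CPM in libraries with the deletion and at least 84.7 in the others. The mut-16, prg-1 and hrde-1 alleles leave counts on their genes, and mRNA is not used as a check of them. Small RNA counts on mut-16 separated its strains. Listed for eri-6[e-f], sosi-1 and the double deletion, means were 93.3, 90.3 and 87.4 CPM with the mutation. Without it they were 206.9, 213.1 and 224.9. The mut-16 mRNA, in the same order, had 23.6, 16.7 and 47.7 CPM against 28.6, 65.6 and 22.9. With the mutation it was thus lower for sosi-1 but higher for the double deletion, and libraries overlapped for eri-6[e-f]. The reason was not tested. In small RNA replicate 1 of prg-1; hrde-1, which stood apart, the entry eri6.1 alone took 19% of all counts. Replicate 3 of prg-1; ergo-1 small RNA is described in its label as mRNA-selected and is kept here as small RNA, where the highest and lowest of the strain's 3 libraries differed by at most 1.07-fold in each of the 7 genes. Nothing in the labels says that replicates are separate cultures, so p-values measure the spread between these samples.

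The 7 mRNAs varied by up to 4.91-fold between strain means, and 4 of them (nrde-1, nrde-2, nrde-4, met-2) shared both extremes: lowest in the double deletion and highest in the double deletion with mut-16. The mRNA of met-2, the methyltransferase that primes H3K9, had strain means from 25.7 ± 1.54 to 126.0 ± 12.1 CPM (SD, n = 3). That of nrde-2 ran from 31.9 ± 0.872 to 135.9 ± 10.3. Both extremes of these 2 genes lay outside the range of the strain next to them, while the strains between them overlapped.

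For nrde-1 the means ran from 21.6 to 58.3 CPM and for nrde-4 from 41.3 to 111.0. In both, the highest strain stood clear of the next, while the lowest, the double deletion, overlapped prg-1; hrde-1. The mRNA of set-25 ran from 7.92 CPM in eri-6[e-f] to 25.3 in prg-1; ergo-1, and that of set-32 from 9.77 in sosi-1; mut-16 to 20.7 in the double deletion with mut-16. In these 2 genes, 7 of 7 neighbouring pairs of strains overlapped in their libraries. The reader gene hpl-2 had its own order: it was highest in the double deletion, at 136.0 ± 16.5 CPM, where 4 of the other genes were lowest, and lowest in prg-1; hrde-1, at 51.9 ± 4.75.

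**Figure D1:**
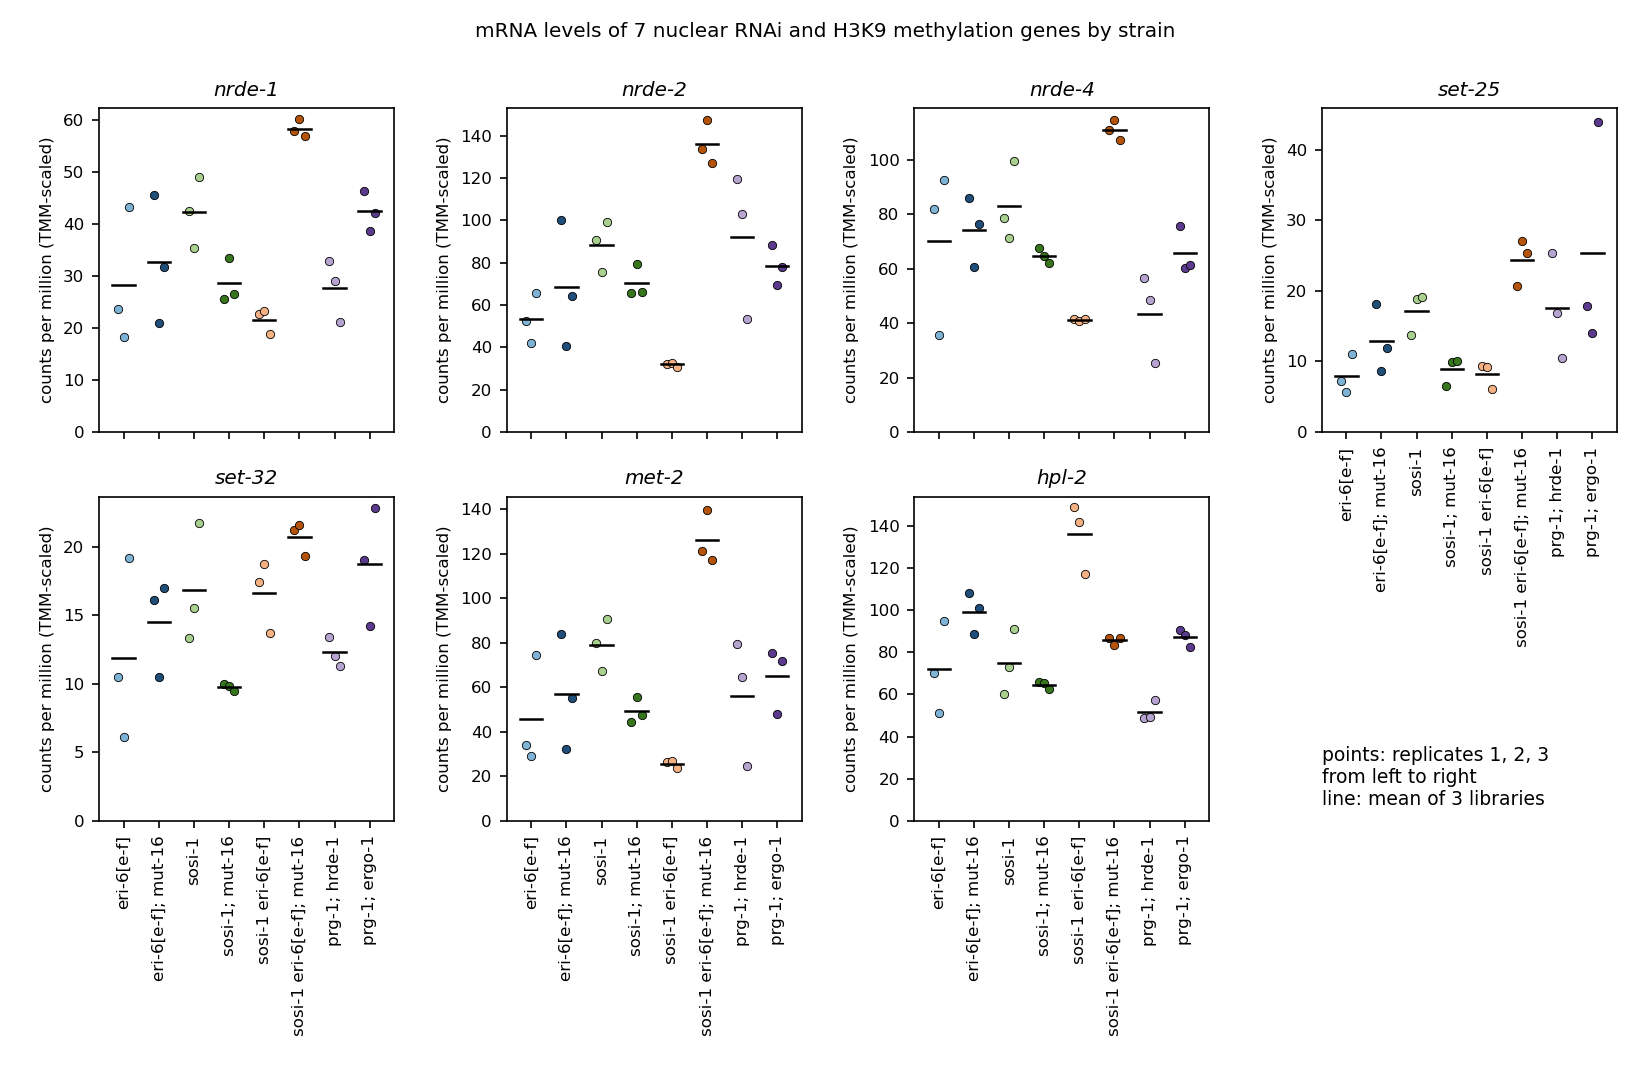
mRNA level of each gene in TMM-scaled CPM (linear axis from 0) in the 3 libraries of each of 8 strains, with the line at their mean. In met-2, nrde-2, nrde-1 and nrde-4 the lowest mean is that of the double deletion and the highest that of the double deletion with mut-16, while hpl-2 is highest in the double deletion.

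In the double deletion, the mut-16 mutation raised the mRNA of 5 of the 7 genes: met-2, nrde-2, set-25, nrde-1 and nrde-4, that is, all 3 NRDE genes and the methyltransferases met-2 and set-25. The set-32 mRNA did not pass the test, and neither did that of hpl-2. Of all 15376 features tested, 28.1% passed as higher in this comparison and 50.2% in either direction. The median log2 fold change of the 7 genes was 1.43, beside 0.09 over all features.

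The largest change among them was in met-2, which had 26.4, 26.7 and 23.9 CPM without mut-16 and 121.1, 139.8 and 117.2 with it. These groups lay far apart, and the fitted change was 4.91-fold (log2 fold change 2.29 ± 0.36 SE, adjusted p = 5.95e-06 from edgeR). The mRNA of nrde-2, whose product joins the nuclear Argonaute at the nascent transcript, stood at 32.2, 32.6 and 30.9 CPM without and 133.6, 147.2 and 126.9 with mut-16. This was a 4.26-fold rise (2.09 ± 0.28, adjusted p = 5.37e-07).

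For set-25, the trimethyl transferase, levels were 9.29, 9.19 and 6.05 CPM without the mutation and 20.7, 27 and 25.4 with it (log2 fold change 1.56 ± 0.36, adjusted p = 0.000503 from edgeR). The nrde-1 mRNA, for a factor bound to chromatin and nascent RNA in nuclear RNAi, had 22.7, 23.3 and 18.8 CPM against 57.8, 60.2 and 56.9. Its rise of 2.69-fold (1.43 ± 0.27, adjusted p = 4.73e-05) was as large as that of nrde-4. The nrde-4 mRNA, whose product brings NRDE-1 to chromatin, was at 41.4, 40.8 and 41.7 CPM and then at 110.9, 114.7 and 107.4 (1.43 ± 0.27, adjusted p = 6.45e-05). In each of these 5 genes the lowest library with mut-16 was above the highest without it.

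The mRNA of set-32 was 17.4, 18.7 and 13.7 CPM without and 21.2, 21.6 and 19.3 with mut-16, groups that did not overlap but differed by a log2 fold change of only 0.31 ± 0.27 (adjusted p = 0.31). The hpl-2 mRNA lay on the other side, with 148.9, 141.7 and 117.4 CPM without and 86.9, 83.3 and 87.0 with mut-16. Its change of -0.67 ± 0.20 had an adjusted p of 0.00433 but was under 2-fold. At any size 6 of the 7 genes thus passed, where 67.6% of features did. In all, 6 genes were higher and 1 lower with no overlap of libraries, where 77.9% of all features did not overlap. With library size as the only scaling, the median over all features moved from 0.09 to 0.64, the share of higher calls among all calls from 55.9% to 79.6%, and hpl-2 to -0.11 (adjusted p = 0.686), while the same 5 genes passed.

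The same mutation gave another picture in the strains with a single deletion. In eri-6[e-f], 0 of the 7 genes passed the test, where 25.7% of features did and 41.6% at any size. Of the 7, 1 (hpl-2) had an unadjusted p below 0.05, as had at least 41.6% of features. All 7 values were positive, from 0.08 for nrde-4 to 0.70 for set-25, a shared sign that rested on single libraries: 3 were positive without eri-6[e-f]; mut-16 replicate 1, 6 without its replicate 3 and 4 without eri-6[e-f] replicate 2. No gene had groups free of overlap, a property of 39.6% of features, and the libraries of both strains were spread widely: met-2 had 33.9, 29.3 and 74.6 CPM without mut-16 and 84.1, 32.4 and 55.2 with it. The hpl-2 mRNA, at 70.0, 51 and 95.1 CPM against 108.2, 88.8 and 101.2, came nearest to the threshold (0.46 ± 0.20, adjusted p = 0.0605). Without eri-6[e-f] replicate 3, 1 gene passed, set-25 (log2 fold change 1.00, adjusted p = 0.0488). With library size as the only scaling the median of all features moved from 0.06 to 0.21 and the share of higher calls from 63.1% to 73.9%.

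In sosi-1, too, 0 of the 7 passed, where 13.7% of features did. An unadjusted p below 0.05 was found in 3 of them, as in at least 22.7% of features. Here all 7 values were negative, from -0.21 for hpl-2 to -0.95 for set-25. The groups of nrde-1, nrde-4, set-25, set-32 and met-2 did not overlap, a property of 45.6% of features. For set-32 the levels were 13.3, 15.5 and 21.7 CPM without mut-16 and 10, 9.82 and 9.48 with it, so that every library with mut-16 was lower, by a log2 fold change of -0.78 ± 0.28 (adjusted p = 0.0429, under 2-fold; 22.7% of features passed at any size). This set-32 value had an adjusted p above 0.05 with library size as the only scaling (-0.69, adjusted p = 0.118) and without any 1 of the 6 libraries other than sosi-1 replicate 1 (from -0.84 to -0.56, adjusted p up to 0.227). For set-25 they were 13.8, 18.8 and 19.1 CPM against 6.56, 9.89 and 10.1 (-0.95 ± 0.36, adjusted p = 0.0567). Leaving out sosi-1 replicate 1 let set-25 alone pass, at -1.09 (adjusted p = 0.0493).

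Whether the mut-16 effect differed between the 3 backgrounds was tested directly with an interaction term, whose size is given as the highest minus the lowest of the 3 log2 fold changes. All 7 genes passed, where 60.1% of all features did, so the count by itself does not set them apart. The range was 2.98 for met-2, 2.52 for set-25, 2.42 for nrde-2, 1.99 for nrde-1 and 1.78 for nrde-4, with adjusted p between 3.76e-05 and 0.000811. It was smaller for hpl-2, at 1.13 (adjusted p = 0.00393), and for set-32, at 1.09 (adjusted p = 0.024). In met-2, set-25, nrde-2, nrde-1 and nrde-4 the effect was highest in the double deletion and lowest in sosi-1, while in hpl-2 it was highest in eri-6[e-f] and lowest in the double deletion. The median range over all features was 1.45 and over the 7 genes 1.99. The test of hpl-2 was lost with library size as the only scaling (range 0.69, adjusted p = 0.0901) and without eri-6[e-f] replicate 2 (0.79), and that of set-32 without sosi-1 replicate 3 (0.87, adjusted p = 0.103), without sosi-1; mut-16 replicate 3 (1.07), without eri-6[e-f]; mut-16 replicate 3 (0.94) and with the compared strains alone in the fit (0.94, adjusted p = 0.0615).

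**Figure D2:**
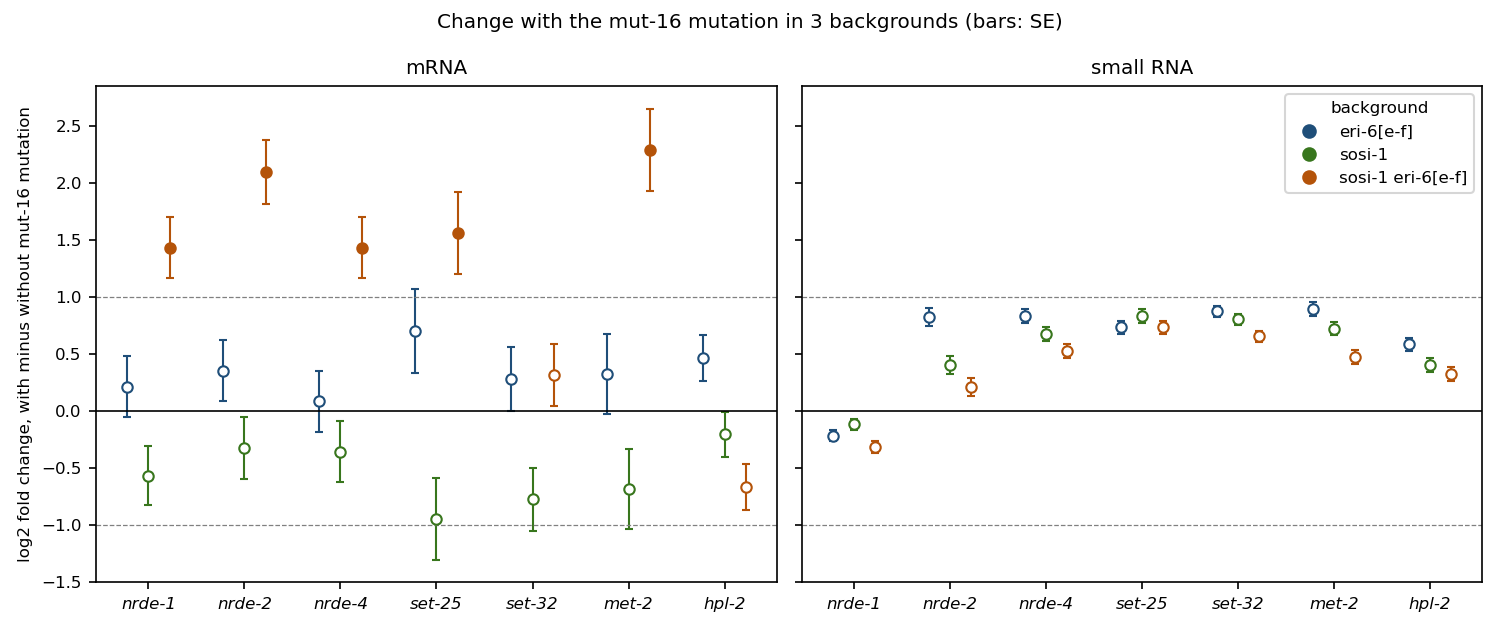
Log2 fold change of each gene with the mut-16 mutation in 3 backgrounds, in mRNA (left) and small RNA (right). Bars are standard errors, filled points passed the test, and dashed lines mark a 2-fold change. The filled points are the 5 mRNAs in the double deletion, and in small RNA with this TMM scaling nrde-1 alone lies below 0, where scaling to microRNA counts also turns 4 other genes negative in the double deletion.

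The same comparisons moved markers of the germline, where several of the 7 genes are known to act. In the double deletion, the summed level of 14 genes of germline proliferation and meiosis was 1861.6 to 2245.5 CPM without mut-16 and 4675.3 to 5227.1 with it, and 8 of the 14 rose and 2 fell. In eri-6[e-f] it was 1388.3 to 1692.4 without and 2780.9 to 5073.2 with the mutation (7 rose), and in sosi-1 it was 3056.8 to 4966.6 without and 1853.3 to 2684.2 with it (2 fell). None of the 14 markers was at 0 in all libraries of a strain. In whole animals, fewer germ cells and less RNA per germ cell cannot be told apart.

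The median log2 fold change of the 14 oocyte and eggshell genes was 1.48 in eri-6[e-f], -0.89 in sosi-1 and 0.91 in the double deletion, and that of 16 sperm genes 2.70, 1.69 and 2.82. Of 5 body muscle genes, 4 fell in eri-6[e-f], 0 in sosi-1 and 4 in the double deletion. Over the 24 libraries, which share strains, the correlation of a gene's log2 level with the mean log2 level of the germline list was 0.835 for nrde-1, 0.832 for set-32, 0.799 for set-25, 0.752 for met-2, 0.654 for nrde-4, 0.607 for nrde-2 and 0.417 for hpl-2. With the strain means removed, this correlation ran from 0.559 for hpl-2 to 0.838 for met-2. The summed marker level of the double deletion lay within the range of sosi-1; mut-16 in all 3 libraries. The nrde-2 mRNA was at 30.9 to 32.6 CPM in the former and 65.8 to 79.3 in the latter. For hpl-2 the same strains had 117.4 to 148.9 and 62.4 to 66.0 CPM. The part that germline content has in the changes of the 7 genes was not tested.

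**Figure D3:**
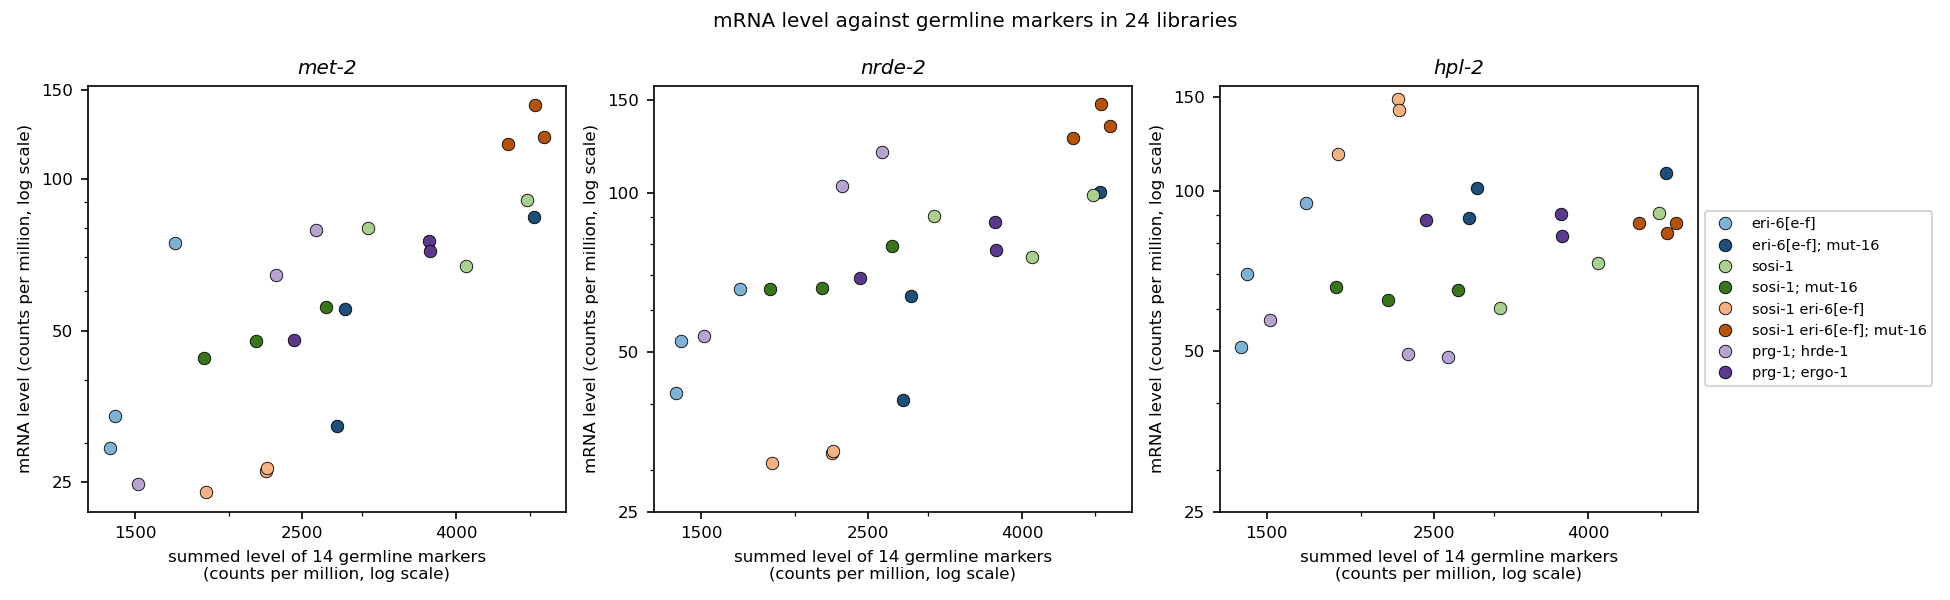
mRNA level of met-2, nrde-2 and hpl-2 against the summed level of 14 germline proliferation and meiosis genes in 24 libraries, coloured by strain, in CPM on log axes. The libraries of the double deletion with mut-16 are highest in met-2 and nrde-2 at marker sums of 4675.3 to 5227.1, and those of the double deletion are highest in hpl-2 at sums of 1861.6 to 2245.5.

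Other genes of nuclear RNAi, of H3K9 methylation and of neighbouring histone marks, a list of 28 drawn from general knowledge of the field, were counted beside the 7. With mut-16 in the double deletion, where 50.2% of all features passed and 28.1% as higher, 15 of 28 rose and 1 fell. Their median log2 fold change was 1.16. The 4 largest rises were in met-1, an H3K36 methyltransferase, at 2.63 ± 0.33, hrde-1, the nuclear Argonaute itself, at 2.45 ± 0.34, cec-8 at 2.32 ± 0.30, and utx-1, an H3K27 demethylase, at 2.27 ± 0.31. The gene that fell was hpl-1, the paralogue of hpl-2, at -1.53 ± 0.19 (adjusted p = 2.19e-07 from edgeR). In eri-6[e-f], where 25.7% of features passed in either direction, 9 of 28 rose and 0 fell. The rises were led by hrde-1 at 1.96 and mes-2, an H3K27 methyltransferase, at 1.55. In sosi-1, where 13.7% of features passed in either direction, 0 rose and 2 fell, mes-4 (-1.07) and lin-65 (-1.01). LIN-65 is a partner of MET-2.

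Without mut-16, the strains with a single deletion and with both could be compared. These comparisons share libraries, so their values are set side by side and not correlated. Against sosi-1, the mRNA of 4 of the 7 genes fell in the strain that also lacks eri-6[e-f], where 24.7% of all features passed as lower and 41.7% in either direction. The fall was -1.62 ± 0.36 for met-2 (adjusted p = 0.000408 from edgeR), from 79.8, 67.1 and 90.8 CPM in sosi-1 to 26.4, 26.7 and 23.9. For nrde-2, at 90.6, 75.7 and 99.1 CPM in sosi-1, it was -1.47 ± 0.27 (adjusted p = 6.45e-05), and every library of the double deletion was below every one of sosi-1.

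The set-25 mRNA fell by 1.06 on the log2 scale and that of nrde-4 by 1.01, while nrde-1, at -0.96 ± 0.27 (adjusted p = 0.00303), was just short of 2-fold. In hpl-2 the double deletion was higher by 0.86 ± 0.20 (adjusted p = 0.000594, under 2-fold), and for set-32 the value was -0.01 ± 0.27. At any size 6 of the 7 passed, where 60.2% of features did. The calls of nrde-4 and set-25 lie at the threshold. That of nrde-4 was lost without sosi-1 replicate 3 (-0.86) or, marginally, replicate 2 of the double deletion, and that of set-25 without sosi-1 replicate 2 (-0.99) or 3 (-0.98) or replicate 3 of the double deletion (-0.91, adjusted p = 0.0746). Germline markers moved here too, with a median of -0.79 over the 14 genes, and so did 13 of the 28 pathway genes, which fell, led by cec-8 (-2.03), utx-1 (-2.03), nrde-3, the somatic nuclear Argonaute (-1.96), and hrde-1 (-1.85). The pathway gene that rose was hpl-1, at 1.07. With library size as the only scaling, the all-feature median here moved from -0.17 to -0.75 and the share of higher calls from 40.8% to 12.5%, and 5 of the 7 genes passed, all lower, nrde-1 among them at -1.54. The hpl-2 value was 0.30 under that scaling (adjusted p = 0.253).

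Between sosi-1 and eri-6[e-f], 1 of the 7 genes passed, where 20.2% of features passed as higher and 33.6% in all. It was set-25, at 13.8, 18.8 and 19.1 CPM in sosi-1 and 7.19, 5.6 and 11 in eri-6[e-f] (1.11 ± 0.37, adjusted p = 0.0145). With no limit on size nrde-2 joined it (0.73 ± 0.27, adjusted p = 0.0253), where 53.4% of features passed. All 7 values were positive, 5 of them without eri-6[e-f] replicate 2 and 6 without sosi-1 replicate 3, and the groups of nrde-2 and set-25 did not overlap, as in 49.5% of features. The count rested on single libraries of eri-6[e-f]: it was 0 without replicate 1 or replicate 2 and 4 without replicate 3, when nrde-1 (1.02), set-32 (1.01) and met-2 (1.33) joined set-25. Scaling by library size alone gave 3, with the median of all features at 0.39 in place of 0.04 and the share of higher calls at 85.5% in place of 60.3%. Germline markers moved here too. Of the oocyte and eggshell genes 10 of 14 rose, of the sperm genes 15 of 16 and of the germline proliferation and meiosis genes 7 of 14. None of these markers fell. Of the 28 pathway genes, 11 rose and 0 fell.

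Against eri-6[e-f], the double deletion changed 0 of the 7 genes, where 19.1% of features passed. An unadjusted p below 0.05 was found in 4 of them, as in at least 36.4% of features. The hpl-2 mRNA came closest, higher by 0.92 ± 0.20 (adjusted p = 0.000957, under 2-fold). Its groups did not overlap, and neither did those of nrde-2 and met-2, as in 40.5% of features. Those of nrde-2 (-0.74 ± 0.27, adjusted p = 0.033) and nrde-4 (-0.77 ± 0.27, adjusted p = 0.0287) were lower by less than 2-fold, so 3 genes passed at any size, where 36.4% of features did. The nrde-2 and nrde-4 values each had an adjusted p above 0.05 without any 1 of the 6 libraries other than eri-6[e-f] replicate 2. With the compared strains alone in the fit, hpl-2 (0.78, adjusted p = 0.0765) and nrde-4 (-0.90, adjusted p = 0.0973) did too. Without eri-6[e-f] replicate 3, hpl-2 (1.18) and set-32 (1.00) passed, and without replicate 2, nrde-4 (-1.06) and met-2 (-1.04). Without replicate 3 of the double deletion it was hpl-2 alone (1.01). Library size as the only scaling gave 2, nrde-4 (-1.05) and met-2 (-1.12), with higher calls at 22.2% in place of 45.7% of all calls. Of 14 oocyte and eggshell genes 7 rose and 0 fell. Of the 14 germline proliferation and meiosis genes and the 16 sperm genes, 0 passed.

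Against prg-1; hrde-1, with which it shares the prg-1 allele, prg-1; ergo-1 had 0 of the 7 mRNAs past the test, where 29.1% of features passed. Of the 7, 4 had an unadjusted p below 0.05, as had at least 54.7% of features. The hpl-2 mRNA was 90.7, 88.3 and 82.4 CPM in prg-1; ergo-1 and 48.8, 49.4 and 57.3 in prg-1; hrde-1. These groups were well apart but differed by less than 2-fold (0.75 ± 0.20, adjusted p = 0.00287; 54.7% of features passed at any size). With library size as the only scaling the hpl-2 value was 0.44 (adjusted p = 0.108). For nrde-1, set-32 and nrde-4 the values were 0.61, 0.61 and 0.60, each with adjusted p above 0.05, and their groups did not overlap either, as in 60.1% of features. In nrde-2 the sign was the other way, at -0.23 ± 0.27.

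Single libraries spread these groups: met-2 had 79.3, 64.4 and 24.8 CPM in prg-1; hrde-1, and set-25 had 17.8, 14.1 and 44.0 in prg-1; ergo-1. In the RefSeq gene table (assembly WBcel235), set-25 overlaps unc-64 and F56A8.8. In the prg-1; ergo-1 library with the high set-25 value these stood at 13.2 and 0.823 CPM, within or below their values in the other 2 libraries. Of the 28 pathway genes, 1 rose (ama-1, the large subunit of RNA polymerase II, 1.21 ± 0.25) and 1 fell (set-30, -1.29 ± 0.23). Among the markers, 7 of 14 oocyte and eggshell genes rose and 0 fell, and 9 of 16 sperm genes fell and 0 rose. Of the 14 germline proliferation and meiosis genes, 0 passed. The median of all features was -0.16 here and -0.47 with library size as the only scaling, where the share of higher calls went from 16% to 4.57%.

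Small RNA means on the same genes differed between the strains of set 2 by 1.49-fold for hpl-2 to 2.2-fold for nrde-2, where mRNA means differed by 2.12-fold to 4.91-fold, 2 ranges that were not tested against each other. Single comparisons could go the other way: with mut-16 in eri-6[e-f], met-2 had a log2 fold change of 0.89 in small RNA and 0.32 in mRNA, and nrde-4 had 0.83 and 0.08. With the mut-16 mutation, 0 of the 7 genes passed the 2-fold test in any of the 3 backgrounds, while 55.2%, 55.8% and 51.1% of features did in eri-6[e-f], sosi-1 and the double deletion. Most of those features fell: 40.8%, 41.8% and 38.8% of all features lost at least 2-fold. In order of level, nrde-4, set-25, set-32, met-2 and hpl-2 were highest in eri-6[e-f]; mut-16, nrde-2 in prg-1; ergo-1 and nrde-1 in the double deletion, and between 2 (set-25) and 5 (nrde-1) of the 7 neighbouring pairs of strains overlapped.

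With no limit on size and with TMM scaling, 6 of the 7 small RNA values were higher with mut-16 in each background at an adjusted p below 0.05, where 35.5%, 37.5% and 36.9% of features were. The met-2 gene had 429.7, 413.8 and 427.3 CPM in eri-6[e-f] and 760.4, 804.9 and 793.7 with mut-16 (log2 fold change 0.89 ± 0.06). In sosi-1 the difference was 0.72 ± 0.06 and in the double deletion 0.47 ± 0.06. The set-32 gene had 190.8, 189.4 and 183.6 CPM in eri-6[e-f] and 331.1, 356.4 and 345.0 with mut-16 (0.87 ± 0.05), then 0.80 ± 0.05 and 0.65 ± 0.05 in the other backgrounds. The groups lay apart each time.

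For nrde-2 the differences were 0.82, 0.40 and 0.21 in the same order of backgrounds, for nrde-4 0.83, 0.67 and 0.52, for set-25 0.73, 0.83 and 0.73, and for hpl-2 0.58, 0.40 and 0.32. The nrde-2 value in the double deletion had an adjusted p above 0.05 with DESeq2 and without any 1 library of the strain that lacks the mut-16 mutation. The groups of all 6 genes were free of overlap in all 3 backgrounds, as 83.6%, 86.4% and 85.9% of features were. The median over the 7 genes was 0.82, 0.67 and 0.47, beside -0.41, -0.37 and -0.25 over all features. The direction depends on the scale. Scaled to microRNA counts other than mir-8203, the values of these 6 genes ran from 0.35 to 0.65 with eri-6[e-f] deleted and from 0.33 to 0.77 with sosi-1 deleted, with 0 of 7 genes at an adjusted p below 0.05 in any of the 3 backgrounds. In the double deletion they turned negative for nrde-2, hpl-2, met-2 and nrde-4, as the median of all features moved from -0.25 to -0.79. The share of higher calls among all calls fell under this scaling to 3.67%, 2.00% and 13.8%, from 26.2%, 25.0% and 24.1%.

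The interaction test gave 0 of 7 genes past 2-fold in small RNA, where 9.58% of features passed, and 4 at an adjusted p below 0.05 of any size, where 23.9% did. The range of the 3 effects was 0.61 for nrde-2 (adjusted p = 0.00161 from edgeR), 0.42 for met-2, 0.31 for nrde-4 and 0.22 for set-32. In nrde-2, met-2 and nrde-4 the effect was largest in eri-6[e-f] and smallest in the double deletion, the background in which their mRNAs rose most. Single libraries moved this count: it was 2, nrde-2 and met-2, without eri-6[e-f] replicate 2, without replicate 2 or 3 of any strain with mut-16, or without any replicate of the double deletion. It was 1 (nrde-2) with library size as the only scaling or with no filter on low counts, 0 with scaling to microRNA counts, 3 with the replicate block, where set-32 was lost, and 7 with DESeq2.

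With TMM scaling, nrde-1 alone was lower in small RNA with mut-16, where 46.5%, 47.7% and 45.1% of features were lower at an adjusted p below 0.05. It had 121.3, 116.6 and 125.4 CPM in eri-6[e-f] and 101.3, 106.4 and 103.7 with mut-16 (-0.22 ± 0.05, adjusted p = 0.000267 from edgeR). In sosi-1 it had 119.9, 107.1 and 104.2 against 100.6, 104.3 and 100.9 (-0.12 ± 0.05, adjusted p = 0.03), and in the double deletion 129.0, 127.9 and 122.6 against 100.4, 98.7 and 104.0 (-0.32 ± 0.05). These calls depend on the scale. Library size as the only scaling turned the value in sosi-1 to 0.02 and left -0.09 in the double deletion (adjusted p = 0.0814), and with no filter on low counts the value in sosi-1 was -0.01. Scaled to microRNA counts, the 3 values were -0.46, -0.19 and -0.87, each with an adjusted p above 0.05. The ratio, within each library, of nrde-1 counts to the median of the other 6 genes needs no scaling, but it moves with the other 6 genes as well as with nrde-1.

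On the log2 scale this ratio had a mean of -0.89 ± 0.07, -0.96 ± 0.06 and -0.82 ± 0.06 (SD, n = 3) in the 3 strains without mut-16 and of -1.92 ± 0.01, -1.89 ± 0.03 and -1.83 ± 0.04 with it. It was therefore lower by 1.03, 0.93 and 1.01 with the mutation. With TMM scaling the larger part of this drop lay in the other 6 genes, which were higher, while nrde-1 itself moved by -0.22, -0.12 and -0.32. It was also low in prg-1; hrde-1, at -1.79 ± 0.09, and in prg-1; ergo-1, at -1.50 ± 0.02, strains that carry no mut-16 allele, and in set 1 it was -0.99 ± 0.13 in prg-1 and -0.83 ± 0.14 in ergo-1. The ratio was chosen after the values were seen and has no test, and its size, unlike its change, depends on the lengths of the genes. In the RefSeq table nrde-1 overlaps sike-1, and the sources used here do not give the strand used in counting, so reads of both cannot be told apart. The sike-1 values with mut-16 were 0.68, 0.56 and 0.46 in the 3 backgrounds.

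**Figure D4:**
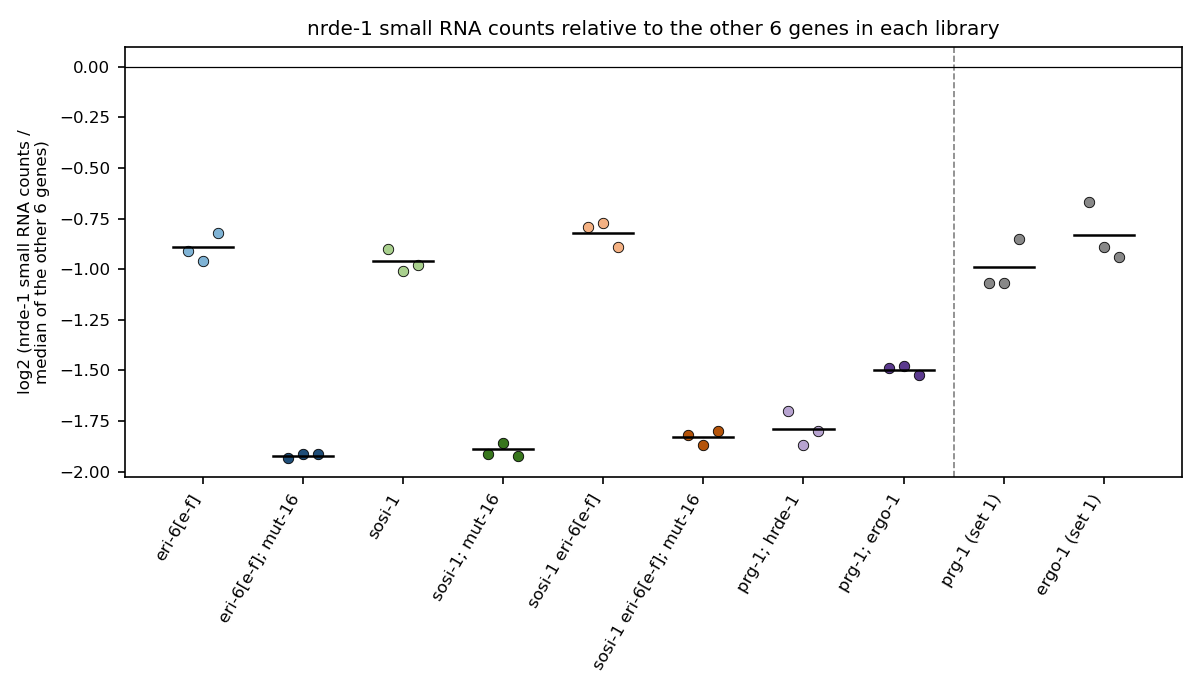
Log2 ratio of nrde-1 small RNA counts to the median of the other 6 genes in each library, with the line at the mean of 3 libraries; set 1 is right of the dashed line. Strains with mut-16 have means of -1.92 to -1.83 and the same deletions without it -0.96 to -0.82.

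Both nrde-4 and set-25 overlap neighbours as well, nrde-4 with cima-1, and set-25 with unc-64 and F56A8.8. The cima-1 values with mut-16 were -3.41, -3.79 and -3.30 and those of unc-64 -1.73, -1.83 and -1.57, opposite in sign to nrde-4 and set-25. Their small RNA counts were low: in eri-6[e-f] cima-1 had a mean of 1.54 CPM without and 0.154 with mut-16, and unc-64 1.06 and 0.347. The means of nrde-4 and set-25 in eri-6[e-f] were 98.8 and 269.5 CPM. F56A8.8, at 0.615 CPM in eri-6[e-f], had -0.90, -0.84 and -1.15, each with an adjusted p above 0.05 from edgeR. In the pathway list, 27 of 28 genes were tested in small RNA, and with mut-16 the numbers that rose and fell were 4 and 4 for the eri-6[e-f] deletion, 3 and 3 for sosi-1 and 1 and 4 for the double deletion. Of all features, 55.2%, 55.8% and 51.1% passed in the same order, and 40.8%, 41.8% and 38.8% passed as lower. The chromodomain gene cec-8 fell, at -6.28, -6.50 and -6.13 on the log2 scale, and so did hpl-1, at -3.29, -3.02 and -3.16. Its paralogue hpl-2 had 0.58, 0.40 and 0.32. The small RNA values of these HP1 genes thus lay on opposite sides of 0, except in the double deletion under scaling to microRNA counts, where hpl-2 was at -0.22. A further chromodomain gene, cec-4, fell too, at -1.92, -1.70 and -2.29, while jmjd-2, an H3K9 and H3K36 demethylase, rose by 1.28, 1.25 and 1.01 on the log2 scale.

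**Figure D5:**
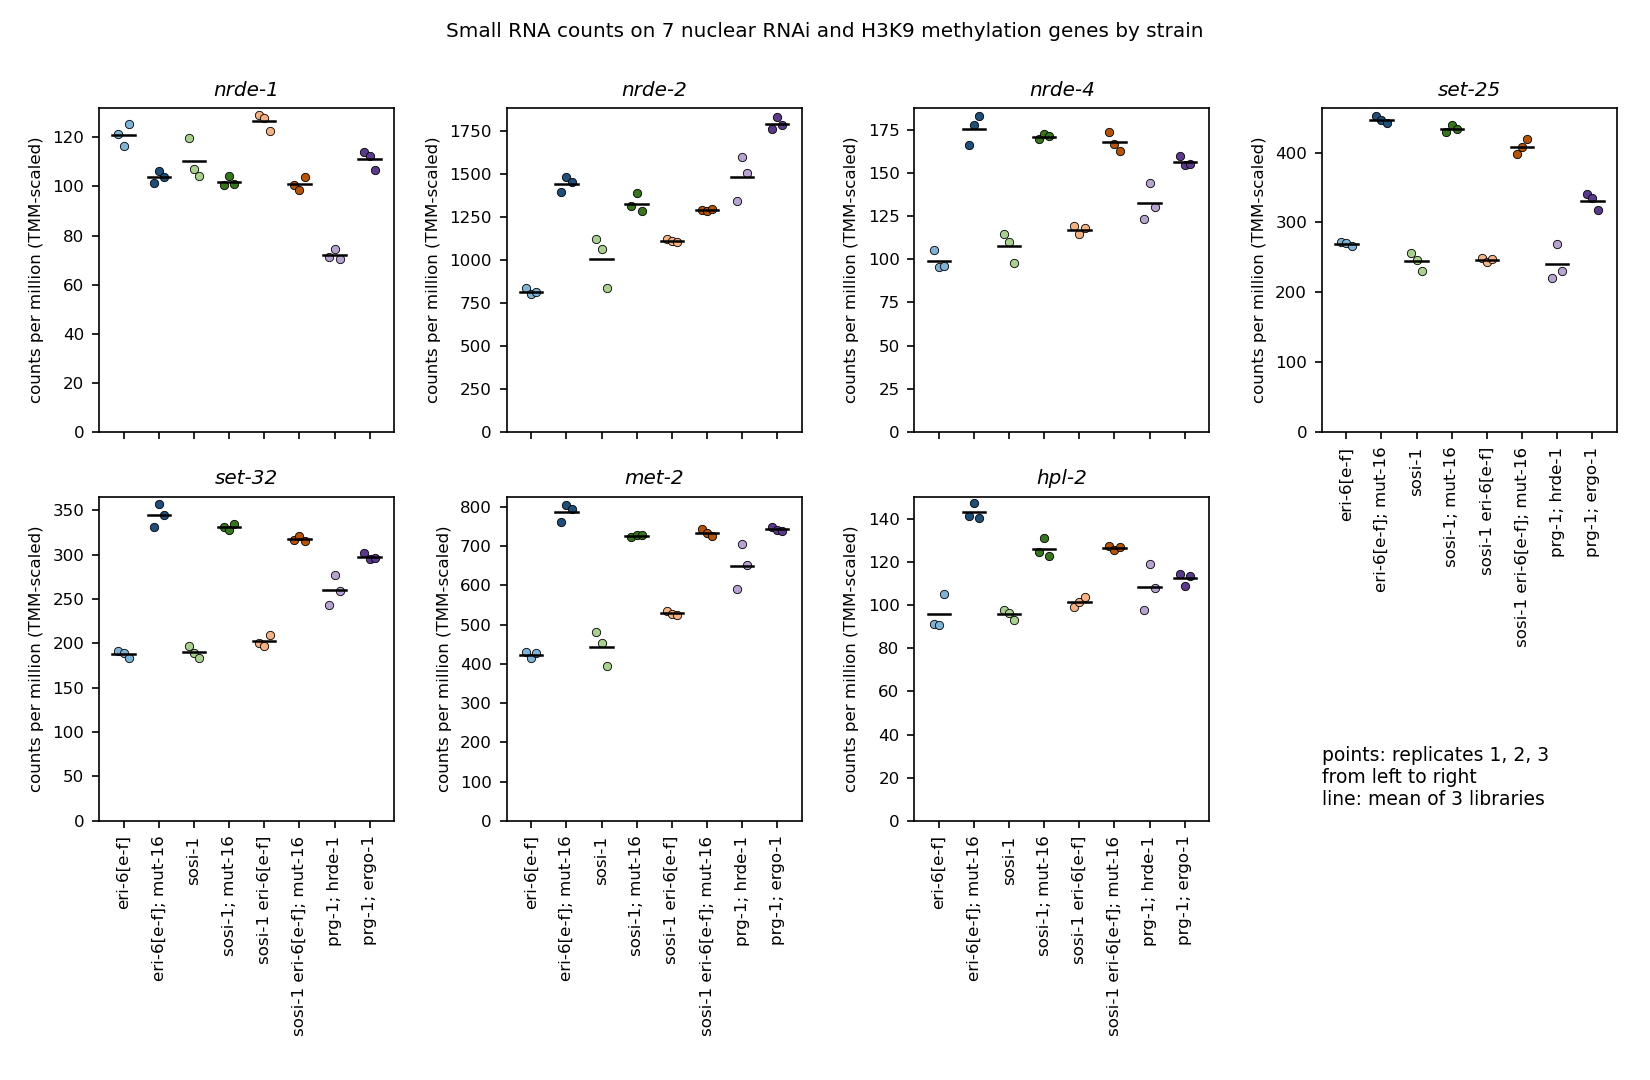
Small RNA counts on each gene in TMM-scaled CPM (linear axis from 0) in the 3 libraries of each of 8 strains, with the line at their mean. In 6 genes all libraries of the strains with mut-16 lie above those of the same deletion without it, an order that depends on the scaling, and in nrde-1 the lowest mean is 72.1 in prg-1; hrde-1.

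In prg-1; ergo-1 against prg-1; hrde-1, 0 of the 7 genes passed the 2-fold test in small RNA, where 23.6% of features did. With no limit on size, 6 were higher at an adjusted p below 0.05, where 26.5% of features were. The largest difference was in nrde-1, at 114.1, 112.4 and 106.7 CPM in prg-1; ergo-1 and 71.2, 74.6 and 70.3 in prg-1; hrde-1 (0.62 ± 0.05, adjusted p = 6.14e-10 from edgeR). The set-25 gene followed, at 340.6, 334.8 and 318.2 CPM against 220.0, 269.6 and 230.0 (0.46 ± 0.06, adjusted p = 7.22e-07). Both groups of libraries were apart. The other 5 values ran from 0.05 for hpl-2 to 0.27 for nrde-2. With DESeq2's own scaling nrde-1 and set-25 alone had an adjusted p below 0.05, and without prg-1; hrde-1 replicate 1, the library that stood apart, 5 genes did. Scaled to microRNA counts, the 7 values ran from 1.19 to 1.80, with 0 at an adjusted p below 0.05 and a median over all features of 1.23.

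Among the strains without mut-16, 0 of the 7 genes passed the 2-fold test in any of the 3 small RNA comparisons, where 7.45% (sosi-1 against eri-6[e-f]), 1.21% (double deletion against eri-6[e-f]) and 9.43% (double deletion against sosi-1) of features did. With no limit on size, nrde-2 was higher in sosi-1 than in eri-6[e-f] (0.30 ± 0.08, adjusted p = 0.0102; 18.0% of features in either direction). Its libraries were at 1121.4, 1065.9 and 840.1 CPM in sosi-1 and at 837.3, 799.9 and 813.9 in eri-6[e-f], so replicate 3 of sosi-1 only just cleared the other strain. The double deletion was higher than eri-6[e-f] in nrde-2 (0.45 ± 0.08), met-2 (0.32 ± 0.06) and nrde-4 (0.25 ± 0.06), where 7.5% of features were higher, and higher than sosi-1 in met-2 (0.26 ± 0.06) and nrde-1 (0.20 ± 0.05), where 15.9% were. The last count was 0 with library size as the only scaling or with no filter on low counts, and all 3 counts were 0 with scaling to microRNA counts. The count for sosi-1 against eri-6[e-f] was 0 without eri-6[e-f] replicate 2. In mRNA, met-2 was lower in the double deletion than in sosi-1 (-1.62), on the other side of 0 from its small RNA value.

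In set 1, ergo-1 was compared with prg-1, with growth temperature not tied to the libraries in the labels, so that temperature and genotype cannot be told apart here. None of the 7 genes passed the 2-fold test (edgeR), where 46.0% of features did. Of the 7, 6 had an unadjusted p below 0.05, as had at least 77.5% of features. With no limit on size, 4 were lower in ergo-1: nrde-2 (-0.66 ± 0.06), set-32 (-0.55 ± 0.07), nrde-4 (-0.34 ± 0.09) and met-2 (-0.30 ± 0.06). The nrde-2 counts were 800.3, 862.6 and 895.1 CPM in ergo-1 and 1358.1, 1315.9 and 1358.5 in prg-1, well apart. Both set-25 (0.29 ± 0.06) and hpl-2 (0.33 ± 0.11) were higher, hpl-2 with overlapping groups, while nrde-1 was at 0.05 ± 0.08. At any size 77.5% of features changed, so 6 of 7 is close to the rest.

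These calls depend on the scale too. Library size as the only scaling moved the median of all set 1 features from 0.04 to 0.36, met-2 to 0.01 and nrde-4 to -0.03, neither of them then at an adjusted p below 0.05, and brought nrde-1 to 0.36 (adjusted p = 0.000788), so that 3 genes were higher and 2 lower. Scaled to microRNA counts, nrde-2 alone remained at an adjusted p below 0.05 (-0.81, adjusted p = 0.0293). The hpl-2 value had an adjusted p above 0.05 without ergo-1 replicate 1 or without prg-1 replicate 1 or 2. Of the pathway list in this comparison, 3 of 27 rose, cec-8 (5.88 ± 0.11), hpl-1 (3.82 ± 0.17) and cec-4 (2.50 ± 0.15). These are the genes with the largest falls with mut-16, while hpl-2 stayed under 2-fold in both.

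Across the 8 strains, small RNA counts on a gene did not track its mRNA closely. The correlation of log2 strain means between the assays, over 8 strains that share mutations, ran from -0.066 for nrde-1 to 0.357 for nrde-2. Within an assay, pairs of genes were correlated over single libraries, a measure that is not directly comparable with that of strain means. Over the 24 mRNA libraries, pairs among nrde-1, nrde-2, nrde-4, set-25 and met-2 had correlations of log2 level from 0.484 to 0.947, and pairs with hpl-2 from -0.368 to 0.598. With the strain means removed, pairs with hpl-2 ran from 0.309 to 0.82 and pairs among the other genes just named from 0.51 to 0.947. The negative values of hpl-2 thus came from differences between strains, while its range stayed lower at both ends. In small RNA it was nrde-1 that went its own way: its pairs ran from -0.429 to 0.025, and all other pairs from 0.432 to 0.981. With the strain means removed its pairs ran from 0.332 to 0.662 and the others from 0.407 to 0.938. Its negative values, too, came from differences between strains, while its range stayed lower at both ends.

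Over the same 24 libraries, among 8898 features with a mean of at least 5 CPM, the mRNAs most like each gene were found by Pearson correlation of log2 levels. They were usp28 (0.99) and rrf-3, an RNA-dependent RNA polymerase of the 26G-RNA pathway (0.988), for met-2, and sacy-1 (0.984) and elpc-1 (0.971) for nrde-1. For nrde-2 they were lars-1 (0.968) and rpc-2 (0.967), for nrde-4 thoc-5 and nst-1 (0.978 each), for set-25 ulp-4 (0.966) and phf-15 (0.963), and for set-32 edc-3 (0.954) and algn-6 (0.952). For hpl-2 they were elli-1 (0.982) and F26A3.7 (0.978). A correlation of at least 0.9 was not rare: between 1.01% of features, for set-32, and 3.74%, for met-2, reached it.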

How the data were processed

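The members and gene lists were chosen with earlier results of these data known. The authors deposited estimated counts per gene name for each library, 24 mRNA and 30 small RNA, and cutadapt, HISAT2 and Salmon are listed, without versions, in the submitters' processing notes. Build, annotation and the strand used in counting are not given there. Per the labels' protocols, reads were 75 nt single-end, small RNAs were gel-selected at 18 to 30 nt and mRNA was selected with oligo(dT). Names were matched to RefSeq locus tags (WBcel235; 45682 of 46003 in set 2). All columns were used.

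Entries that share a name (3.51% to 6.08% of counts, none of the 7 genes) were summed. The expected counts as deposited were rounded, filtered with filterByExpr, scaled by TMM and fitted with edgeR 4.0.16 in R 4.3.3 (quasi-likelihood test, 1 term per strain), separately for set 1 (11746 features), set 2 small RNA (15380) and mRNA (15376). P-values were adjusted by Benjamini-Hochberg over all features of a fit. The interaction was tested with 1 F-test of equality of the 3 mut-16 effects. A standard error is the absolute log2 fold change over the square root of F. On simulated data with a log2 change of 2, the test of mut-16 in eri-6[e-f] recovered 200 of 200 changed features among 14577 in small RNA, with 3 false calls, and 199 of 200 among 14802 in mRNA, with 1. The simulated spread was set in advance, below that of the mRNA libraries, and rises and falls were equal in number. Far fewer features changed than in the real comparison. The simulation therefore checks that the code runs correctly and does not give the power for changes near 2-fold. The marker and pathway lists were not tested as sets. The genes named beside the 7 are the largest changes of the pathway list, the nearest genes by correlation (log2 of CPM plus 0.5) and genes that overlap a member. Alternatives were library size as the only scaling, microRNA counts as the scale, no filter, DESeq2 1.42.0, the compared strains alone, a replicate block, no fold threshold and each replicate left out.

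Replicates agreed less closely than counting noise would give (chi-square per feature at least 1.65 in 54 pairs, none identical). The same replicate numbers occur in each strain. Deviations of same-numbered libraries correlated above 0.1 in every pair in 1 of 15 comparisons, mRNA with mut-16 in the double deletion (0.11, 0.12 and 0.22).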

Additional observations from a re-analysis of the deposited data

Results flagged for a closer look

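The effect of mut-16 differed between the eri-6[e-f], sosi-1 and double deletion backgrounds for each of the 7 mRNAs, by the interaction test in edgeR. The highest and lowest of the 3 log2 fold changes were 2.98 apart for met-2, 2.52 for set-25, 2.42 for nrde-2, 1.99 for nrde-1, 1.78 for nrde-4, 1.13 for hpl-2 and 1.09 for set-32. Of all features, 60.1% passed the same test. The result of hpl-2 was lost with library size as the only scaling, and that of set-32 without some single libraries. In small RNA the effects differed at an adjusted p below 0.05, by less than 2-fold, for nrde-2 (0.61), met-2 (0.42), nrde-4 (0.31) and set-32 (0.22), as they did for 23.9% of features. With library size as the only scaling nrde-2 alone remained, and with scaling to microRNA counts none did. No group had enough libraries for a search for single outlying samples.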

How the results depend on the processing

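Of 1533 values recomputed for single genes under another setting, 1493 counted as the same, 15 no longer passed the threshold, 19 newly passed it and 6 changed sign. A change of sign was counted only if the adjusted p was below 0.05 in either setting. The 1493 therefore include changes of sign in values with an adjusted p above 0.05 in both settings. The count of 5 mRNAs that rose with mut-16 in the double deletion was 5 under every alternative run. Without the fold threshold the number of genes passing in small RNA was 7 with mut-16 in each of the 3 backgrounds, 4 for the interaction, 1 for sosi-1 against eri-6[e-f], 3 and 2 for the double deletion against eri-6[e-f] and sosi-1, 6 for the prg-1 strains and 6 in set 1. In mRNA it was 0, 1 and 6 with mut-16 in eri-6[e-f], sosi-1 and the double deletion, 7 for the interaction, 2 for sosi-1 against eri-6[e-f], 3 and 6 for the double deletion against eri-6[e-f] and sosi-1, and 1 for the prg-1 strains. Fewer conditions on a call give more calls by construction.

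Library size as the only scaling gave 3 in place of 1 mRNA for sosi-1 against eri-6[e-f] and 2 in place of 0 for the double deletion against eri-6[e-f], and turned the small RNA values of met-2 in set 1 to 0.01 and of nrde-1 with mut-16 in sosi-1 to 0.02. Scaling to microRNA counts, applied to single genes after seeing the data, turned 4 small RNA values with mut-16 in the double deletion: nrde-2 -0.33, hpl-2 -0.22, met-2 -0.07 and nrde-4 -0.02. The cause was not tested. With 1 replicate left out, counts in mRNA ran from 0 to 1 with mut-16 in either strain with a single deletion, from 0 to 4 for sosi-1 against eri-6[e-f], from 0 to 2 for the double deletion against eri-6[e-f], from 3 to 5 against sosi-1 and from 6 to 7 for the interaction. They were 0 for every small RNA comparison and for the prg-1 strains. The replicate block changed none of the counts of genes past the 2-fold test, the 5 with mut-16 in the double deletion among them, and of the counts without the fold threshold it moved the small RNA interaction from 4 to 3. In 14 of 15 comparisons the replicate numbers did not pair the libraries (correlations from -0.68 to 0.50). The mRNA libraries limit precision most, with a coefficient of biological variation of 0.215, against 0.12 in set 2 small RNA and 0.0779 in set 1.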
